A study of Mus musculus with 4 samples.

Results

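The genes described are 50 genes of DNA replication and licensing: the subunits of the origin recognition complex, the factors that load and activate the replicative helicase, the polymerases and their accessory proteins, ribonucleotide reductase, the cyclins E and Cdca7. The rule that picks them uses gene symbols and no measured value, though the set was proposed with earlier results of these data known, and where a gene had several probe sets the brightest over the 4 arrays was used. The 50 genes, of 18193 genes named on the array, have 111 probe sets there. All 50 reached the floor of 24.9 units in mean signal, as did 11379 genes in all. RNA came from primary keratinocytes, the main cell type of the epidermis, grown from newborn C57BL/6 mice. The cells were wild type (WT) or labelled as a knockout of p38a, a stress-activated protein kinase encoded by Mapk14, and were collected either unirradiated or 4 h after 75 mJ/cm2 of ultraviolet B (UVB). Each of the 4 combinations was measured on 1 Affymetrix array, so a difference between a pair of arrays has no replicate check. The labels name no unirradiated culture kept for those 4 h, so a UVB difference also holds the time in culture. The sources used here give neither the number of animals behind a culture nor the cells in which the gene was deleted nor the deleted stretch. KO-labelled cells did not have less Mapk14 signal, with 985 and 293 units in WT cells and 1449 and 647 units in KO-labelled cells, before and after UVB. A probe set outside the deleted stretch cannot check a genotype, so every genotype direction rests on the labels.

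Most genes on the array gave less signal after UVB. Over the 11379 genes the log2 difference had a median of -0.70 for WT and -0.82 for KO-labelled cells, against 0.01 and 0.12 for 18 spike-in control probe sets. These controls are not RNA of the cells and cannot show the amount or quality of that RNA, which was not tested. Of 9 tested markers of basal keratinocytes, Krt5 and Krt14, their defining keratins, were between 11820.1 and 13795 units on all arrays, and 6 were lower after UVB by limma, among them Trp63, which went from 1676 to 150.5 units in WT and from 1931 to 236 units in KO-labelled cells. The summed signal of 9 tested fibroblast markers was 3006 and 2300 units in WT and 5952 and 3932 units in KO-labelled cells, before and after UVB. Those of 7 melanocyte markers summed to between 4823 and 8582 units, 2 of 6 leukocyte markers were at or above the floor, and 0 of 5 endothelial markers were.

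Replication starts at origins. In G1 the origin recognition complex, with Cdc6 and Cdt1, loads rings of Mcm2 to Mcm7 onto DNA, a step called licensing. At the start of S phase, kinases and further factors turn each loaded ring into an active helicase by adding Cdc45 and the GINS complex, and polymerases alpha, delta and epsilon then copy the strands with the help of the clamp PCNA, its loader RFC and the single-strand binding protein RPA. Many of these genes are known targets of the E2F transcription factors, which the retinoblastoma protein family restrains in cells that are not cycling. Basal keratinocytes are the dividing cells of the epidermis, and DNA damage by UVB is known to slow origin firing through the checkpoint kinases ATR and CHK1.

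Promoter sequence was examined for the letters that E2F proteins are known to bind, since so many members are E2F targets. RefSeq promoter windows on the GRCm38.p6 assembly were found for 42 of the 50 genes, as 51 windows. Sequences of Ccne2, Gins1, Gins2, Gins4, Mcm4, Pole, Prim2 and Rfc2 were not used here. The search covered the 250 bases before each start on both strands, for the 4 words TTTCCCGC, TTTCGCGC, TTTGCCGC and TTTGGCGC. At least 1 word was found in 12 of the 51 windows (23.5%), which belong to Cdc6, Cdca7, Gins3, Mcm5, Mcm6, Mcm7, Orc1, Orc3, Pola1, Pole4 and Rfc3, and in 1.86% of 32851 windows of all genes. Shown here are the stretches of 3 genes whose signal was among the lowest after UVB relative to before (Orc1, Cdc6 and Cdca7), and of 3 subunits of the replicative helicase (Mcm5, Mcm6 and Gins3). Capitals mark the words, each sequence runs 5′ to 3′ on the strand of its gene, and coordinates are those of GRCm38.p6. The sequences of Orc1 and Cdc6 lie inside the gene as RefSeq delimits it. They begin 38 and 149 bases before a transcript start that RefSeq lists 3749 and 442 bases from the gene's start. The Mcm5 run and the longer Mcm6 run each hold words that overlap on opposite strands.
Orc1, chr4:108579416-108579445, plus strand: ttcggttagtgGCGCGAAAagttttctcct
Cdc6, chr11:98908002-98908031, plus strand: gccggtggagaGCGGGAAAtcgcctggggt
Cdca7, chr2:72476049-72476186, plus strand: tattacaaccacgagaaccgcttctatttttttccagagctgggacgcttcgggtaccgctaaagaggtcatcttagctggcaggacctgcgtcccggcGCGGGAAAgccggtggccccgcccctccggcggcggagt
Mcm5, chr8:75109339-75109467, plus strand: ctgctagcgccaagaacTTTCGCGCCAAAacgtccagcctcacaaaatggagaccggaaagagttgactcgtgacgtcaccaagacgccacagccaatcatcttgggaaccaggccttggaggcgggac
Mcm6, chr1:128359706-128359875, minus strand: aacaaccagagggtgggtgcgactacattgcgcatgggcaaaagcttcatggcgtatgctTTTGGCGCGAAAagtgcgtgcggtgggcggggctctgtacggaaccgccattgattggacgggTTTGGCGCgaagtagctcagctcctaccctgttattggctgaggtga
Gins3, chr8:95633389-95633558, plus strand: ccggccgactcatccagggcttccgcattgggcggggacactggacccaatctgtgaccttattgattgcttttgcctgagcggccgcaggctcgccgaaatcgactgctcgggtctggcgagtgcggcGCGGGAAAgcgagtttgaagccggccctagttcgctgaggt

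A match describes the letters and is no evidence of binding. The CCAAT box, searched on both strands in the same way, was in 52.9% of the members' windows and 33.8% of all windows, and the E-box CACGTG was in 11.8% and 6.02%. The mean log2 UVB difference over both genotypes ranged from -2.97 to 0.07 in the 11 members with an E2F word, with a median of -0.87. In the 31 members with a window and no word it ranged from -1.99 to -0.08, with a median of -0.78. The ranges overlap, and the members with a word include both Cdca7, the member with the lowest mean difference, and Pole4, the member with the highest.

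Replication genes as a group were lower 4 h after UVB to about the same degree as other genes, and with a similar spread. The middle 50% of the members had mean differences over both genotypes from -1.37 to -0.49, and that of all genes from -1.26 to -0.38. The members' log2 difference had a median of -0.64 (WT) and -0.81 (KO-labelled cells), and 49 of them were below 0 in each genotype. Of all genes, 89.9% were below 0 in WT and 93.7% in KO-labelled cells. In bulk RNA, fewer cells of a type and less RNA per cell cannot be told apart. A limma model of irradiation and genotype over the 4 arrays, with Benjamini-Hochberg adjustment over the 11379 genes and a threshold of 0.05, found 43 of the 50 genes (86%) lower after UVB and 0 higher (0 also at an unadjusted p under 0.05). Of all genes 69.4% passed as lower and 0.703% as higher. With 1 residual degree of freedom, a gene's own variance reads how far the genotypes' responses disagree. For the p-value, limma weighs it with a variance trend over genes of like brightness, worth 8.13 degrees of freedom. Neither part measures the spread between cultures. The 7 genes that did not pass were Fen1, Lig1, Pold4, Pole3, Pole4, Rfc5 and Rpa3. In WT cells 15 of the genes were at least 2-fold lower after UVB, as were 34.8% of all genes, and in KO-labelled cells 17 were, as were 39.3% of all genes. None of the 50 was 2-fold higher in WT or in KO-labelled cells, against 0.58% and 0.167% of all genes.

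Because the array-wide signal moved, the scaling sets which members count as lower. When each array was shifted to a common median over the tested genes, an alternative chosen after seeing the data, the members' median difference became 0.07 in WT cells and 0.01 in KO-labelled ones. limma then called 12 of them lower and 12 higher, where 24.2% and 19.4% of all genes were called. Quantile normalization gave 13 lower and 12 higher, against 19.8% and 19.9% of all genes. Centring of arrays on probe-set medians gave 8 lower and 24 higher, against 14.9% and 36.6%. The genes called lower as deposited and under all 3 rescalings were Orc1, Orc5, Cdc6, Mcm10, Pold3, Ccne1, Ccne2 and Cdca7, which are 8 of 50 (16%), where 14.7% of 11266 genes meet the same rule. Those called higher under all 3 rescalings were Fen1, Lig1, Pold4, Pole3, Pole4, Rfc2, Rfc5 and Rpa3, again 8 of 50, where 13.8% of all genes do. Both shares are near those of all genes. In what follows, a log2 difference is after minus before UVB, and "relative to the arrays" means limma's effect after that shift.

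**Figure D1:**
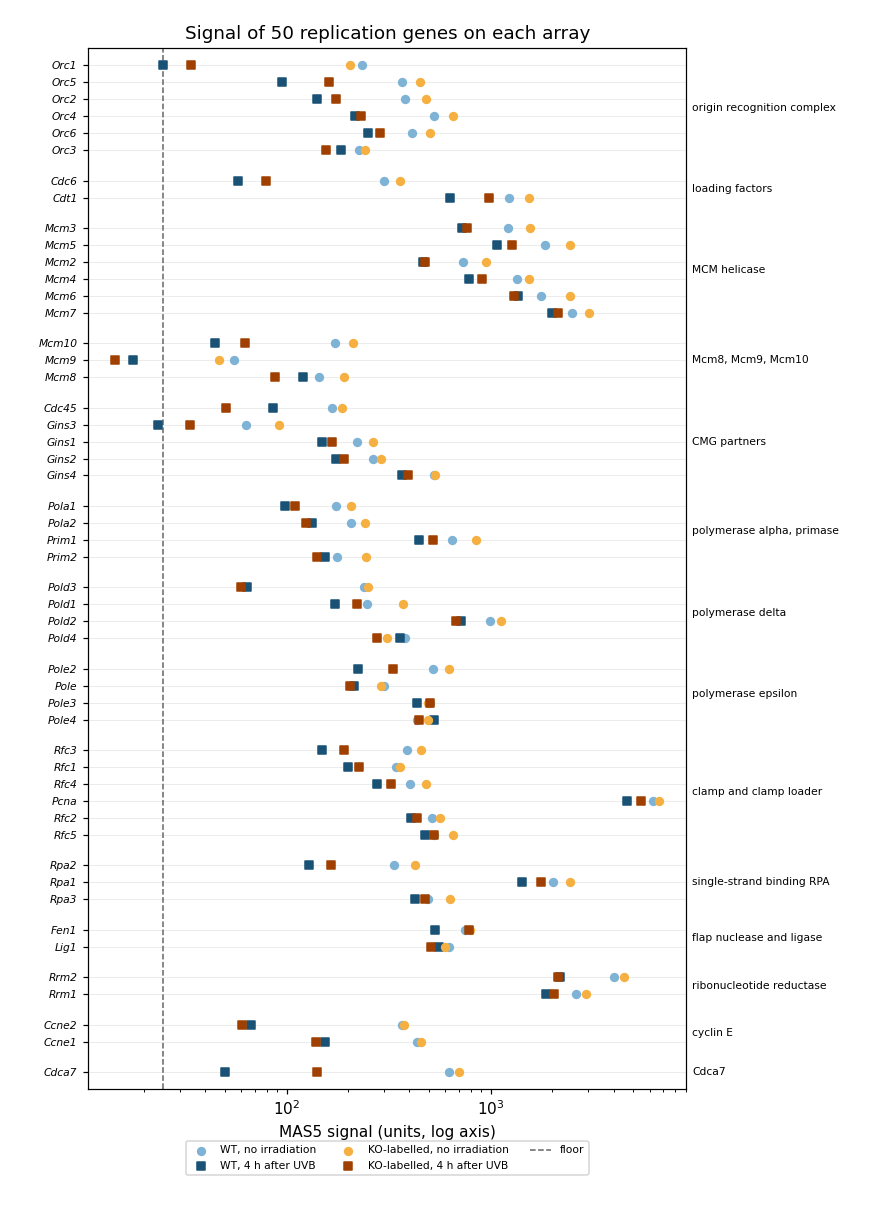
Signal of each replication gene on the 4 arrays, on a log axis in MAS5 units, with genes grouped by role and circles for unirradiated, squares for irradiated cells. The dashed line is the floor of 24.9 units, under which only Orc1, Gins3 and Mcm9 fell after UVB, and the wide gaps between circles and squares are those of Orc1, Cdc6, Mcm10, Pold3, Ccne2 and Cdca7.

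The origin recognition complex, which marks origins and recruits the loading machinery, had median log2 differences of -1.35 (WT) and -1.48 (KO-labelled cells), the lowest of the multi-subunit complexes described. All 6 subunits passed limma as lower, and 4 of them (Orc1, Orc2, Orc4 and Orc5) were also lower relative to the arrays. Orc1, the ATPase subunit whose level is known to vary over the cell cycle, went from 233 to 24.8 units in WT cells and from 205 to 33.9 units in KO-labelled cells. Both irradiated arrays were near the floor and far below both unirradiated ones, a fall of at least 9.36-fold in WT cells and of 6.04-fold in KO-labelled cells. The limma effect of Orc1 was -2.91 (SE 0.24, adjusted p = 1.00e-05), and relative to the arrays it was -2.15 (adjusted p = 3.67e-04). Orc5, another ATPase-fold subunit, went from 367 to 95.5 units in WT cells and from 450.2 to 161 units in KO-labelled cells, with a limma effect of -1.71 (SE 0.17, adjusted p = 2.80e-05). Orc2 and Orc4 had log2 differences between -1.27 and -1.49. Orc3, at the other end of the complex, went from 227 to 185 units in WT cells and from 242 to 155 units in KO-labelled cells. Its limma effect was -0.47 (SE 0.17, adjusted p = 0.0316) as deposited, and relative to the arrays it was 0.29 (adjusted p = 0.173), on the other side of 0. Orc6 had log2 differences of -0.73 (WT) and -0.83 (KO-labelled cells).

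Cdc6, the ATPase that joins the origin recognition complex to load the helicase, went from 300.0 to 57.8 units in WT cells and from 359 to 79.2 units in KO-labelled cells. That is a fall of 5.19-fold in WT and 4.53-fold in KO-labelled cells, with a limma effect of -2.28 (SE 0.18, adjusted p = 8.06e-06) and of -1.52 (adjusted p = 4.15e-04) relative to the arrays. Cdt1, which escorts the helicase ring to the origin, went from 1226 to 631 units in WT cells and from 1534 to 985 units in KO-labelled cells, so each irradiated array was below both unirradiated arrays. Its limma effect of -0.80 (SE 0.12, adjusted p = 2.81e-04) became -0.04 (adjusted p = 0.831) relative to the arrays, close to the shift of the median gene.

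The helicase ring itself, Mcm2 to Mcm7, had median log2 differences of -0.69 (WT) and -0.92 (KO-labelled cells). All 6 subunits passed limma as lower as deposited, none was lower relative to the arrays, and 1 was higher. Under centring all 6 effects were above 0, from 0.21 to 0.68. Under quantile normalization all 6 were below 0, from -0.36 (Mcm5) to -0.02 (Mcm7), and Mcm3 and Mcm5 were called lower. Mcm2, which with Mcm5 forms the gate through which the ring closes on DNA, went from 728 to 468 units in WT cells and from 948 to 477 units in KO-labelled cells. Mcm5 went from 1835 to 1073 units in WT cells and from 2432 to 1274 units in KO-labelled cells. Mcm3 went from 1220.1 to 724 units in WT cells and from 1550.4 to 761 units in KO-labelled cells, and had the largest limma effect of the 6, -0.89 (SE 0.12, adjusted p = 1.29e-04). In all 3 genes the irradiated arrays lay below both unirradiated ones. Mcm4 went from 1344 to 785 units in WT cells and from 1544 to 908 units in KO-labelled cells. Mcm6 went from 1756 to 1355 units in WT cells and from 2439 to 1305 units in KO-labelled cells. The Mcm6 difference was -0.37 (WT) and -0.90 (KO-labelled cells), the widest gap between genotypes in the ring, and its irradiated arrays were close together while the unirradiated KO-labelled array was higher. Mcm7 went from 2499 to 1986 units in WT cells and from 3011 to 2131 units in KO-labelled cells, the smallest fall of the 6, with a limma effect of -0.42 (SE 0.10, adjusted p = 0.00398). Relative to the arrays it was 0.35 (adjusted p = 0.0166), the call in the opposite direction. Across the 6 subunits the log2 differences ran from -0.78 to -0.33 in WT and from -1.03 to -0.50 in KO-labelled cells.

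The other genes with an Mcm name have other roles. Mcm10, which helps activate the assembled helicase at origin firing, went from 173 to 44.7 units in WT cells and from 211 to 62.6 units in KO-labelled cells, and its limma effect was -1.85 (SE 0.20, adjusted p = 4.30e-05) as deposited and -1.09 (adjusted p = 0.00335) relative to the arrays. Mcm8 and Mcm9 form a separate helicase used in homologous recombination. Mcm8 went from 144 to 119.9 units in WT cells and from 192 to 88.1 units in KO-labelled cells, a log2 difference of -0.26 (WT) and -1.12 (KO-labelled cells), so that the difference lay mostly in the KO-labelled cells. Mcm9 went from 55.6 to 17.7 units in WT cells and from 46.5 to 14.5 units in KO-labelled cells. Both irradiated values of Mcm9 were below the floor, so its fall was at least 2.23-fold in WT and at least 1.87-fold in KO-labelled cells.

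Cdc45 and the 4 GINS subunits turn the loaded ring into a working helicase. All 5 passed limma as lower, with medians of -0.60 (WT) and -0.67 (KO-labelled cells), and 0 were called relative to the arrays. Cdc45 went from 167 to 85.8 units in WT cells and from 187 to 50.4 units in KO-labelled cells. Its log2 difference was -0.96 (WT) and -1.89 (KO-labelled cells), and its limma effect -1.42 (SE 0.25, adjusted p = 7.14e-04) became -0.66 (adjusted p = 0.0539) relative to the arrays. Gins3 went from 63.6 to 23.4 units in WT cells and from 91.8 to 33.6 units in KO-labelled cells, with the irradiated WT array below the floor, so its fall was at least 2.55-fold in WT and was 2.74-fold in KO-labelled cells. Gins4, with the smallest fall of the GINS subunits, went from 528 to 368 units in WT cells and from 531 to 393 units in KO-labelled cells, with a limma effect of -0.48 (SE 0.13, adjusted p = 0.00785). Gins1 and Gins2 had log2 differences between -0.56 and -0.67.

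Polymerase alpha with its primase lays down the RNA-DNA primers that start each strand. Its 4 subunits all passed limma as lower, with medians of -0.59 (WT) and -0.85 (KO-labelled cells), and none was called relative to the arrays. Pola1, the catalytic subunit, went from 175 to 98.4 units in WT cells and from 207 to 111 units in KO-labelled cells, with an effect of -0.87 (SE 0.18, adjusted p = 0.00187). Prim2, the large primase subunit, went from 177 to 154 units in WT cells and from 244 to 141 units in KO-labelled cells, and its limma effect was -0.50 (SE 0.19, adjusted p = 0.0426). The Prim2 difference was -0.20 (WT) and -0.80 (KO-labelled cells), so the arrays of WT cells differed little. Pola2 and Prim1 had log2 differences from -0.53 to -0.97.

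Polymerase delta copies the lagging strand. Pold3, an accessory subunit that binds the clamp, went from 239 to 63.8 units in WT cells and from 252 to 59.9 units in KO-labelled cells. The groups lay far apart, with a limma effect of -1.99 (SE 0.19, adjusted p = 2.02e-05) as deposited and -1.23 (adjusted p = 0.00114) relative to the arrays. Pold4, the smallest subunit, went from 378 to 358 units in WT cells and from 309 to 277 units in KO-labelled cells. Each irradiated value was close to the unirradiated value of its genotype, and the limma effect of -0.12 (SE 0.14, adjusted p = 0.451) did not pass, while relative to the arrays it was 0.64 (adjusted p = 0.00422). The catalytic subunit Pold1 and the subunit Pold2 both passed as lower, with differences from -0.48 to -0.74, and neither was called relative to the arrays.

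In polymerase epsilon, which copies the leading strand, 2 of the 4 subunits passed limma as lower. Pole2, the subunit that ties the polymerase to the helicase, went from 523 to 225 units in WT cells and from 625 to 330.4 units in KO-labelled cells, with a limma effect of -1.07 (SE 0.14, adjusted p = 1.31e-04). Pole, the catalytic subunit, had log2 differences of -0.47 (WT) and -0.51 (KO-labelled cells) and an effect of -0.49 (SE 0.15, adjusted p = 0.0145). Pole3 and Pole4 are small histone-fold subunits that handle histones at the fork. Pole3 went from 503 to 438 units in WT cells and from 493 to 504 units in KO-labelled cells, with a limma effect of -0.08 (SE 0.13, adjusted p = 0.57). Pole4 went from 435 to 527 units in WT cells and from 492 to 445 units in KO-labelled cells, with a limma effect of 0.07 (SE 0.14, adjusted p = 0.685). Neither passed, their irradiated and unirradiated values overlapped, and relative to the arrays both were higher, with 0.68 (adjusted p = 0.00327) for Pole3 and 0.83 (adjusted p = 0.00111) for Pole4.

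**Figure D2:**
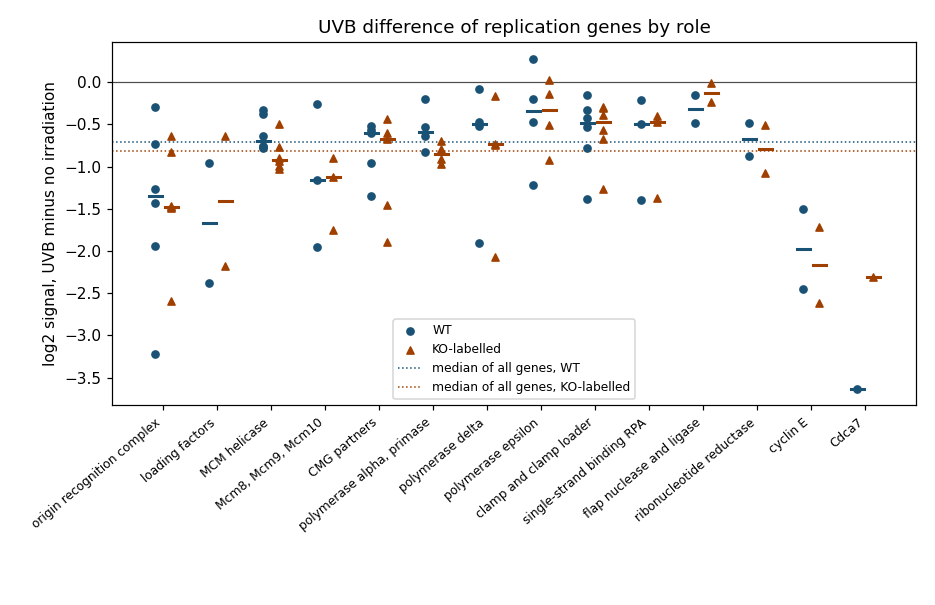
Log2 signal after minus before UVB for each replication gene by role, circles for WT and triangles for KO-labelled cells, with dotted lines at the median of all genes, -0.70 (WT) and -0.82 (KO-labelled). Cdca7, Orc1, Ccne2 and Cdc6 lie furthest below those lines, and the small subunits of polymerases delta and epsilon lie near 0.

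Of the 6 genes of the clamp and its loader 5 passed limma as lower, with medians of -0.48 (WT) and -0.47 (KO-labelled cells). Pcna, the sliding clamp that tethers polymerases and many repair enzymes to DNA, went from 6249 to 4654 units in WT cells and from 6681 to 5433 units in KO-labelled cells. The irradiated arrays were below both unirradiated ones, the limma effect was -0.36 (SE 0.09, adjusted p = 0.00442), and relative to the arrays Pcna was higher at 0.40 (adjusted p = 0.013). Rfc3, a small subunit of the loader, went from 389 to 149 units in WT cells and from 457 to 190.2 units in KO-labelled cells, with an effect of -1.32 (SE 0.15, adjusted p = 5.01e-05) as deposited and of -0.56 (adjusted p = 0.0131) relative to the arrays. Rfc5, another small subunit, went from 529.5 to 475 units in WT cells and from 655 to 528 units in KO-labelled cells, and its effect of -0.23 (SE 0.12, adjusted p = 0.118) did not pass. The large subunit Rfc1 and the small subunits Rfc2 and Rfc4 passed, with differences from -0.33 to -0.77, and of these Rfc2 was higher relative to the arrays at 0.40 (adjusted p = 0.0215).

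The single-strand binding complex RPA coats the exposed template, and its 3 subunits also differed. Rpa2, the subunit that checkpoint kinases phosphorylate, went from 336 to 128 units in WT cells and from 427 to 166 units in KO-labelled cells, with a limma effect of -1.38 (SE 0.15, adjusted p = 4.68e-05) and of -0.62 (adjusted p = 0.00958) relative to the arrays. Rpa3, the smallest subunit, went from 491 to 424 units in WT cells and from 628 to 476 units in KO-labelled cells, and its limma effect of -0.31 (SE 0.13, adjusted p = 0.0549) did not pass. Rpa1, the large DNA-binding subunit, passed with log2 differences of -0.50 (WT) and -0.47 (KO-labelled cells). Relative to the arrays Rpa1 and Rpa3 were higher and Rpa2 lower. Centring, after which the brightest probe set was picked anew, placed Rpa2 on the other side of 0, at 0.15. That value is from its other probe set, which as deposited was at -0.93 (WT) and -0.98 (KO-labelled cells).

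Fen1 and Lig1 finish Okazaki fragments by cutting the flap and sealing the nick. Fen1 went from 749 to 534 units in WT cells and from 789 to 783 units in KO-labelled cells, and its limma effect of -0.25 (SE 0.14, adjusted p = 0.133) did not pass. Its other probe set was at -0.38 (WT) and -0.45 (KO-labelled cells). Fen1 passed limma as lower with the mean over probe sets, at -0.33 (adjusted p = 0.0208), and without probe sets marked as cross-hybridising, at -0.42 (adjusted p = 0.00927). Lig1 went from 623 to 559.6 units in WT cells and from 599.8 to 510.0 units in KO-labelled cells, and its effect of -0.19 (SE 0.12, adjusted p = 0.172) did not pass either. Relative to the arrays Fen1 was at 0.51 (adjusted p = 0.0209) and Lig1 at 0.57 (adjusted p = 0.0036).

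Ribonucleotide reductase makes the deoxynucleotides that replication consumes. Rrm2, its cell-cycle regulated small subunit, went from 4005 to 2177 units in WT cells and from 4469 to 2123 units in KO-labelled cells, with an effect of -0.98 (SE 0.10, adjusted p = 2.55e-05). Rrm1, the large subunit, went from 2608 to 1872 units in WT cells and from 2917 to 2048 units in KO-labelled cells, with an effect of -0.49 (SE 0.09, adjusted p = 0.00119). In both genes the irradiated arrays lay below the unirradiated ones. Relative to the arrays Rrm1 was higher at 0.27 (adjusted p = 0.0475), and Rrm2 was not called. Under quantile normalization limma called Rrm2 lower, at -0.64, and Rrm1, at -0.09, was not called.

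The cyclins E, which activate Cdk2 at the entry into S phase, fell in both genotypes. Ccne2 went from 367 to 67.1 units in WT cells and from 374 to 60.7 units in KO-labelled cells, a fall of 5.46-fold in WT and of 6.16-fold in KO-labelled cells. It had the smallest adjusted p of the 50 genes, with a limma effect of -2.54 (SE 0.17, adjusted p = 5.28e-06) and of -1.77 (adjusted p = 1.87e-04) relative to the arrays. Ccne1 went from 437 to 154 units in WT cells and from 457 to 139 units in KO-labelled cells, with effects of -1.61 (SE 0.15, adjusted p = 2.04e-05) as deposited and -0.85 (adjusted p = 0.00172) relative to the arrays. The WT and KO-labelled arrays of the same irradiation state almost coincide in both genes.

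Cdca7, a target of MYC and E2F whose protein works with the chromatin remodeller HELLS, had the lowest mean difference of the 50 genes. It went from 621 to 50.03 units in WT cells and from 702 to 142 units in KO-labelled cells. Its fall was 12.4-fold in WT and 4.95-fold in KO-labelled cells, with a limma effect of -2.97 (SE 0.27, adjusted p = 1.63e-05) and of -2.21 (adjusted p = 5.50e-04) relative to the arrays. This rests on 1 probe set, since the other of its 2 probe sets had a mean signal below the floor.

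Across the 50 genes the UVB difference in WT and that in KO-labelled cells correlated with a Pearson coefficient of 0.90 and a Spearman coefficient of 0.85. Over all 11379 genes these were 0.81 and 0.78. The points share the 4 arrays, the array-wide shift and the probe sets, so the values describe these arrays only. The responses differed at least 2-fold in 1 member, Cdca7, at 1.33 in log2 terms, where 4.27% of all genes differed that much. The next largest gaps, as the KO-labelled minus the WT response, were -0.93 for Cdc45, -0.86 for Mcm8, 0.63 for Orc1, -0.60 for Prim2 and -0.53 for Mcm6. Only these 6 genes had gaps beyond 0.5 in either direction, a cut for which the share of all genes is not given here. The middle 50% of the gaps ran from -0.21 to 0.10 in the members and from -0.33 to 0.15 in all genes. With 1 array a group none of the gaps was tested.

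**Figure D3:**
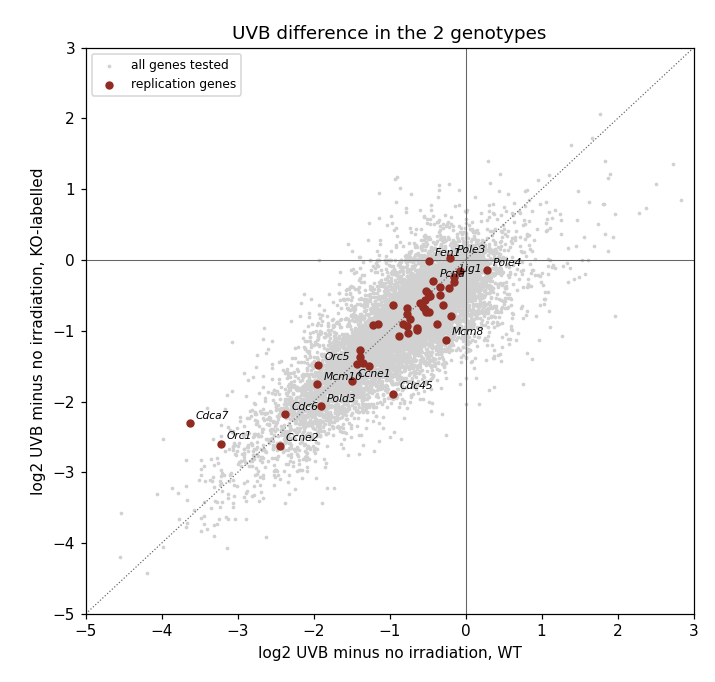
Log2 UVB difference in KO-labelled cells against that in WT cells, replication genes in red over all 11379 tested genes in grey. Most replication genes lie along the diagonal, and Cdca7 (-3.63 and -2.31), Cdc45 (-0.96 and -1.89) and Mcm8 (-0.26 and -1.12) lie furthest from it.

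Between the genotypes, the replication genes were mostly a little brighter in the KO-labelled cells, and limma called 0 of them at the 0.05 threshold, where 1.61% of all genes were called. At an unadjusted p under 0.05, limma had 10 members higher and 1 lower in KO-labelled cells, where 13.7% and 3.74% of all genes were, and the smallest adjusted p was 0.0846, for Cdt1. The differences of unirradiated cells, KO-labelled minus WT, ran from -0.29 to 0.59 with a median of 0.24, and 44 of the 50 were above 0. Of all genes 73.1% were above 0, with a median of 0.16. After UVB they ran from -0.77 to 1.503 with a median of 0.15, against 0.05 for all genes. No member differed 2-fold without irradiation, where 2.36% of all genes did, and Cdca7 alone did so after UVB, where 2.88% did. Its genotype difference was 0.18 without irradiation and 1.503 after UVB, and limma's effect over both states was 0.84 with an adjusted p of 0.158.

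By the mean over both irradiation states, the members furthest above 0 in KO-labelled cells were Cdca7 (0.84), Orc5 (0.52), Cdt1 (0.48), Gins3 (0.48) and Pold1 (0.48). Cdt1 was 1.25-fold higher in unirradiated and 1.56-fold higher in irradiated KO-labelled cells than in WT. The members furthest below 0 were Pold4 (-0.33), Cdc45 (-0.30), Mcm9 (-0.13), Lig1 (-0.09) and Orc3 (-0.08). Of the 9 fibroblast markers, 5 (Col1a1, Col1a2, Col3a1, Col6a2 and Thy1) were higher in KO-labelled cells by limma, with list medians of 0.99 without irradiation and 0.80 after UVB. Of 8 markers of suprabasal, differentiating keratinocytes, limma called Krt1 and Krt10 higher and Lor and Sbsn lower in KO-labelled cells, and the list's summed signal was 19305 and 17496 units in WT and 18116 and 16117 units in KO-labelled cells, before and after UVB. The 7 melanocyte markers had list medians of 0.55 without irradiation and 0.26 after UVB, and limma called 0 of them by genotype. The part of these cell types in the genotype differences of replication genes was not tested.

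**Figure D4:**
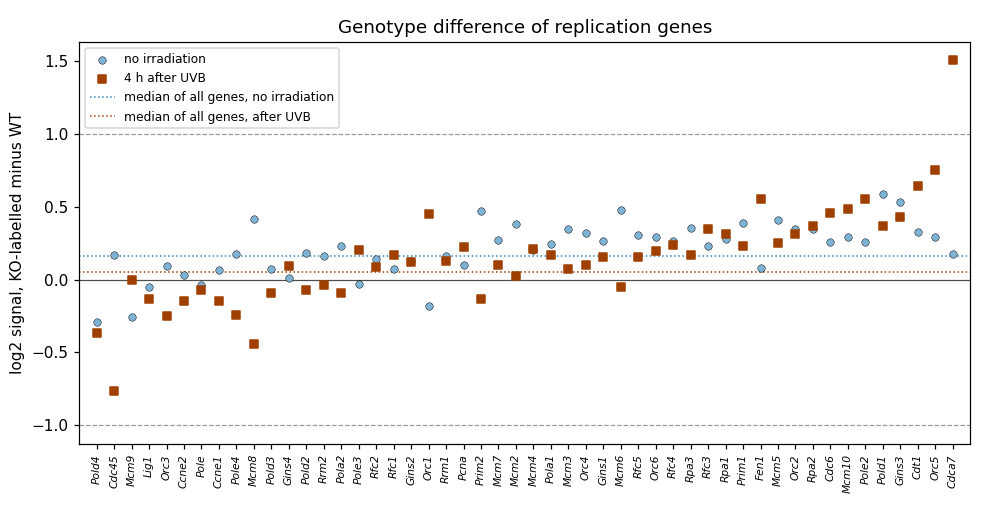
Log2 signal in KO-labelled minus WT cells for each replication gene, circles without irradiation and squares 4 h after UVB, with dotted lines at the median of all genes of 0.16 and 0.05. Most points lie between -0.29 and 0.59, and the square of Cdca7 stands apart at 1.503.

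The UVB difference of a member went with the mean signal of its probe set over the 4 arrays. That mean includes the irradiated arrays, so a larger fall by itself lowers it. Cdca7 (621 and 702 units) and Ccne1 (437 and 457 units) were above 400 units on the unirradiated arrays, though their means were below. In the band of mean signal from 100 to 400 units lay 25 members, with medians of -0.83 (WT) and -1.12 (KO-labelled cells), against -0.96 and -1.03 for the 4250 genes of that band. Of these 25, 8 were in the lowest 25% of the band by mean difference, namely Orc1, Orc5, Cdc6, Mcm10, Pold3, Ccne1, Ccne2 and Cdca7, and 5 were in its highest 25%. From 400 to 1600 units the 16 members had medians of -0.51 and -0.54, against -0.62 and -0.72, with 1 (Orc4) in the lowest 25% and 7 in the highest. Below 100 units lay Gins3 and Mcm9, with medians of -1.26 and -1.18, against -0.65 and -0.81. In the brightest band, from 1600 units up, the 7 members (Mcm5, Mcm6, Mcm7, Pcna, Rpa1, Rrm1 and Rrm2) had medians of -0.48 and -0.51, while the 899 genes of the band had -0.21 and -0.30. All 7 lay below the band's median, and Mcm5, Mcm6 and Rrm2 were in its lowest 25%. So Mcm7, Pcna, Rpa1 and Rrm1, called higher relative to the arrays, lay below the median of that band. The band has no upper limit, and Rpa1 (1909 units), Rrm1 (2361 units) and Mcm7 (2407 units) lay towards its lower end. Their mean differences of -0.48, -0.49 and -0.42 were above the median of -0.67 of all genes from 400 to 1600 units. The difference between the members and their band was not tested.

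**Figure D5:**
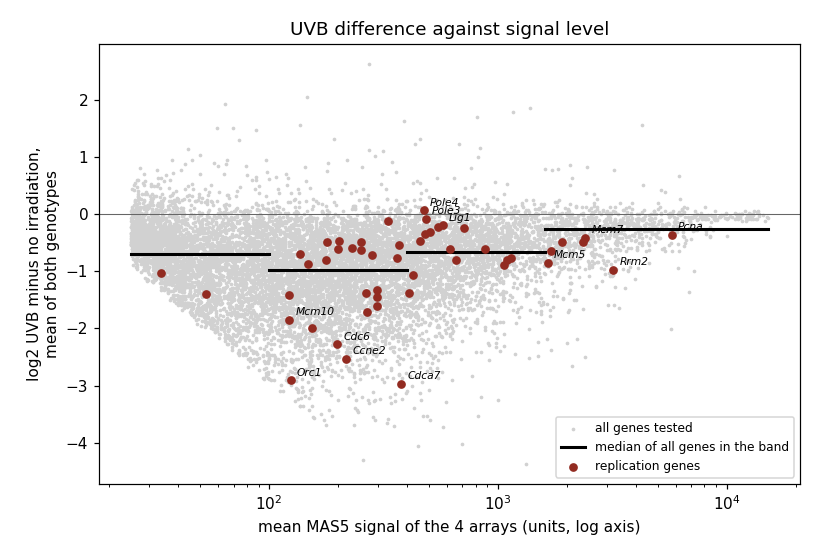
Mean log2 UVB difference of both genotypes against mean MAS5 signal on a log axis, replication genes in red over all tested genes in grey, with black bars at the median of all genes in each signal band. The 7 members above 1600 units all lie below the bar of their band, while those between 100 and 400 units spread on both sides of theirs.

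The members span a median of 16.2 kb on the GRCm38.p6 assembly, against 22.9 kb over all tested genes. Spearman's correlation of span with the mean UVB difference was -0.25 across the 50 genes and -0.34 across all genes, a description only, since genes on the same arrays are no replicates. The correlation of mean signal with the UVB difference was 0.46 across the members and 0.06 across all genes. The mean signal includes the irradiated arrays, so it is not independent of the difference. The 14 members under 10 kb, from Ccne1 at -1.61 to Pole3 at -0.08, had a median mean difference of -0.51, against -0.46 for all genes of that length. The 21 members from 10 to 30 kb, from Cdca7 at -2.97 to Rfc2 at -0.36, had -0.80, against -0.72. The 13 members from 30 to 100 kb, from Orc1 at -2.91 to Pole4 at 0.07, had -1.03, against -0.96 for all genes. Pola1 and Prim2, the members over 100 kb, had -0.68 against -0.95.

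Of the 111 probe sets 94 were at or above the floor, 30 genes had 2 or more of these, and in 29 of the 30 they had the same direction in both genotypes. The median gap between a gene's highest and lowest probe set was 0.34 (WT) and 0.40 (KO-labelled cells). Gaps of 1 or more in log2 terms occurred in Orc1, Mcm3 and Pole3. The second probe set of Orc1 gave -1.502 in WT and -0.92 in KO-labelled cells, a smaller fall than the -3.23 and -2.60 of the brighter probe set. The dimmest probe set of Mcm3 was at -0.31 and -0.08, and the dimmest of Pole3 at -0.04 and 1.19, while its second brightest gave -0.46 and -0.57. Cdc6 and Ccne2 have 1 probe set each.

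The other genes of the pathway were taken as lists, and their counts stand beside 69.4% of all genes called lower as deposited and 24.2% lower and 19.4% higher relative to the arrays. Of 17 tested E2F and retinoblastoma family regulators, limma called 17 lower and 0 higher as deposited, and 12 lower and 0 higher relative to the arrays. Their medians were -1.56 in WT and -1.47 in KO-labelled cells. Lin54, a DNA-binding subunit of the complex that represses and activates cell-cycle genes, had an effect of -3.10. E2f3, an activating E2F, had -2.99, and E2f6, a repressing E2F, had -2.71. Lin54 was below the floor on both irradiated arrays, a fall of at least 8.03-fold in WT and 9.12-fold in KO-labelled cells, and E2f3 on that of the KO-labelled cells. In 13 genes of origin firing and licensing control, 13 were lower as deposited and 8 relative to the arrays, with medians of -1.502 and -1.46. Dbf4 and Cdc7, the subunits of the kinase that acts on the loaded helicase, had effects of -2.41 and -1.97, and Dtl, the adaptor that directs Cdt1 to degradation, had -2.05.

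Of 18 tested G1 and S phase cyclins, kinases and inhibitors, 13 were lower and 1 higher as deposited, and 7 were lower and 5 higher relative to the arrays. Skp2, which targets a Cdk2 inhibitor for degradation, had a limma effect of -2.85, and those of the growth regulator Myc and the Cdk2 phosphatase Cdc25a were -2.42 and -2.11. The 1 higher gene was Cdkn1a, the p53 target that inhibits Cdk2, which read 3418 and 6276 units in WT cells and 3614 and 3937 units in KO-labelled cells before and after UVB. Its UVB difference was 0.88 (WT) and 0.12 (KO-labelled cells), and its limma effect was 0.50 (SE 0.15, adjusted p = 0.015). The 15 genes of fork protection and checkpoint had medians of -1.37 (WT) and -1.65 (KO-labelled cells), with 13 lower as deposited and 9 relative to the arrays. Their largest effects were those of Wee1, the kinase that restrains Cdk1 (-3.31), the fork protein Wdhd1 (-2.50) and the checkpoint clamp loader Rad17 (-2.35).

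Nucleotide supply had the medians nearest 0 of these lists, with 10 of 13 tested genes lower as deposited, 1 lower and 4 higher relative to the arrays, and medians of -0.60 and -0.67. Tk1, thymidine kinase, had an effect of -1.15, Dck -0.98 and Ctps -0.87. Of 16 clamp, Okazaki and cohesion factors 13 were lower as deposited, and 6 were lower and 5 higher relative to the arrays, with the nuclease Dna2 at -2.60, Esco2 at -2.03 and Atad5 at -1.94. Esco2 in irradiated KO-labelled cells and Atad5 on both irradiated arrays were below the floor, so these 2 effects depend on it. All 11 tested genes of replication-coupled chromatin were lower as deposited, and 4 were lower and 2 higher relative to the arrays, led by Hells, the partner of Cdca7, at -1.92, with Asf1a at -1.86 and Nasp at -1.35. Of 12 translesion synthesis genes 10 were lower as deposited, and 8 were lower and 2 higher relative to the arrays, with Rev1 at -2.53, Polh at -1.96 and Usp1 at -1.91. Of 25 G2 and M phase genes 23 were lower as deposited, and 10 were lower and 2 higher relative to the arrays, with Ttk at -2.49, Aurka at -2.03 and Cenpf at -1.80.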

How the data were processed

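RNA of 4 keratinocyte cultures was measured on Affymetrix arrays, 1 per group, grouped by genotype and stress labels. The deposited table holds linear signal intensity, summarised by the authors to probe sets with MAS5, per the submitters' processing notes. For its version and scaling target, the sources used here say nothing. Names came from the platform annotation, and only probe sets with exactly 1 symbol were used. Signals were raised to a floor, the median over probe sets of mean signal (24.9 units), and then taken as log2. Irradiation and genotype entered an additive limma model (limma 3.58.1, R 4.3.3), with an intensity trend and Benjamini-Hochberg adjustment at 0.05 over 11379 genes. The model was also run on simulated data. Those data had independent noise, few changed genes and no array-wide shift, so they cannot show that the calls hold here. Differences between 2 arrays have no test and count from 2-fold. The number of arrays limits the precision. The alternatives were other scalings, floors, fold thresholds, probe-set rules and limma settings. Values on all arrays are given for Mcm2 to Mcm7 and for the members with the largest and smallest fall of each role. The 3 genes of each pathway list with the largest effects are named, and Cdkn1a, named after its values were seen as the only list gene called higher. The members and lists were chosen with earlier results of these data known.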

Additional observations from a re-analysis of the deposited data

Results flagged for a closer look

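The UVB difference of 2 replication genes had opposite signs in the genotypes. Of all genes 9.22% were above 0 in WT and 5.84% in KO-labelled cells, and the share with opposite signs is not given here. Pole3, a histone-fold subunit of polymerase epsilon, was at -0.20 in WT and 0.03 in KO-labelled cells, a difference between the responses of 0.23. Pole4, its partner subunit, was at 0.28 in WT and -0.14 in KO-labelled cells, a difference of -0.42. Each response compares 1 array with 1 array, and the difference was not tested. The measured probe sets of Pole3 disagreed in sign.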

How the results depend on the processing

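The scaling between arrays decided most counts. Members called lower after UVB by limma went from 43 to 13 with quantile normalization, 8 with centring and 12 with the shift to a common gene median, which was chosen after seeing the data, and members called higher from 0 to 12, 24 and 12. Members 2-fold lower in WT went from 15 to 4, 4 and 7 (9.47%, 7.37% and 12.1% of all genes), and in KO-labelled cells from 17 to 4, 4 and 6 (8.22%, 6.46% and 10.9%). Quantile normalization and centring each gave 1 member 2-fold higher in WT (5.33% and 11.3% of all genes), and centring gave 2 in KO-labelled cells (8.87%). These follow from the scalings' construction, which moves all genes of an array together or by rank. Quantile normalization and centring also pick each gene's brightest probe set anew, so with centring the Rpa2 value is from its other probe set. The limma effect took the opposite sign in 29 genes with centring: Cdt1 0.30, Gins1 0.48, Gins2 0.50, Gins4 0.62, Mcm2 0.29, Mcm3 0.21, Mcm4 0.33, Mcm5 0.25, Mcm6 0.46, Mcm7 0.68, Mcm8 0.41, Orc3 0.63, Orc6 0.32, Pcna 0.74, Pola1 0.23, Pola2 0.30, Pold1 0.47, Pold2 0.50, Pole 0.61, Pole2 0.031, Prim1 0.49, Prim2 0.60, Rfc1 0.38, Rfc2 0.74, Rfc4 0.55, Rpa1 0.62, Rpa2 0.15, Rrm1 0.61 and Rrm2 0.12. It did so in 16 genes with quantile normalization: Gins1 0.41, Gins2 0.40, Gins4 0.35, Mcm8 0.39, Orc3 0.55, Orc6 0.12, Pola1 0.22, Pola2 0.25, Pold1 0.35, Pold2 0.048, Pole 0.49, Prim1 0.14, Prim2 0.55, Rfc1 0.23, Rfc2 0.46 and Rfc4 0.35. It did so in 18 genes after the shift: Gins1 0.15, Gins2 0.16, Gins4 0.28, Mcm6 0.12, Mcm7 0.35, Mcm8 0.069, Orc3 0.29, Pcna 0.40, Pold1 0.13, Pold2 0.16, Pole 0.27, Prim1 0.15, Prim2 0.27, Rfc1 0.037, Rfc2 0.40, Rfc4 0.21, Rpa1 0.28 and Rrm1 0.27. Thresholds of 1.5-fold and 3-fold gave 27 and 7 genes lower in WT, 35 and 8 in KO-labelled cells, 4 and 0 different between genotypes after UVB, and 5 and 0 with different responses, and the lower threshold gave 1 different without irradiation. For these thresholds, and for the floors and limma settings below, the share of all genes is not given here. These counts therefore do not set the members apart from other genes. A floor at the 75th percentile, which leaves 45 members, gave 11 genes 2-fold lower in KO-labelled cells and 0 for both genotype counts that hold Cdca7. A floor at the 25th percentile gave 1 genotype call, Cdt1, with an adjusted p of 0.0344 in limma, and the cause was not tested. The members' median relative to all genes was 0.07 in WT, and 0.011 with quantile normalization, 0.11 with centring, 0.034 and 0.10 with the lower and higher floor, and -0.021 with the mean over probe sets, which leaves 49 members. In KO-labelled cells it was 0.01, and -0.072 with quantile normalization, 0.039 with centring, 0.056 with the higher floor, -0.0041 with that mean, and 0.0136 without cross-hybridising probe sets. Without the intensity trend, Mcm7, Mcm8, Orc3, Pcna, Prim2 and Rfc2 no longer passed limma, with adjusted p from 0.0595 to 0.0857. With irradiation alone in the model, limma called 38 members lower, and Mcm8, Orc3, Pold1, Prim2 and Rfc2 no longer passed, with adjusted p from 0.0585 to 0.103. Rfc2 no longer passed with the mean over probe sets (0.062) and Mcm8 with the higher floor (0.0504), while Rpa3 passed with both (0.0342 and 0.0429). No replicate numbers tie arrays across groups, and leaving out an array would empty a group. Array number, probe-set brightness and the unstated scaling target limit every value, and arrays give no counting error.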
